A study of Mus musculus with 27 samples.

Results

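The proteasome genes of mouse 3T3-L1 cells were followed through the first 48 h of adipocyte differentiation, with and without forced expression of the transcription factor Isl1. Members were all genes whose single array symbol began with Psma, Psmb, Psmc, Psmd, Psme or Psmg, leaving out Psmb8 and Psmb9, and 47 of the 19938 measured genes met this rule. They comprised 8 genes of the alpha ring, 9 of the beta ring, 6 base ATPases, 11 non-ATPase subunits of the cap, 4 genes of activators, 7 assembly chaperones and 2 genes, Psmc3ip and Psme3ip1, that carry the prefix but encode no proteasome subunit. The 3T3-L1 line is a mouse fibroblast line that becomes fat-like when a confluent culture is given an inducing mixture. Here that mixture held 350 nM insulin, 0.5 mM isobutylmethylxanthine, 250 nM dexamethasone and 400 nM biotin in 10% fetal calf serum, and was added after confluence. Every array came from cells that carried the retroviral pMIG construct, either empty (vector) or with Flag-tagged ISL1. The vector cells were sampled just before induction (0 h) and at 0.5, 1, 2, 4, 8 and 48 h, and the ISL1 cells at 0 h and 48 h, with 3 arrays in each of the 9 groups. The series text calls the 3 arrays biological triplicates. The labels do not say whether each construct was 1 infected population or several, or whether its cells were sorted. The 0 h arrays, the 0.5 to 8 h arrays and the 48 h arrays carry separate runs of sample numbers, and the labels name no batch. If these runs were processed apart, time and batch cannot be told apart in comparisons between them.

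The proteasome degrades proteins that carry ubiquitin chains. Its barrel-shaped core has outer rings of alpha subunits, which gate the entry, and inner rings of beta subunits, some of which cut peptide bonds. A regulatory cap binds ubiquitin, removes it, and unfolds the protein with a ring of ATPases. Other activators can replace the cap: Psme1 and Psme2 form the interferon-inducible PA28 complex, which acts with the inducible catalytic subunit Psmb10 in antigen processing, whereas Psme3 (PA28 gamma) and Psme4 (PA200) are mainly nuclear. Dedicated chaperones assemble the core (Psmg1 to Psmg4) and the base of the cap (Psmd5, Psmd9 and Psmd10). The stoichiometric core and cap genes are known to be transcribed together in many tissues, and Nfe2l1 is a well-known activator of them.

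Promoters from RefSeq (assembly GRCm38.p6) were available for 39 of the 47 members, as 43 promoters of 300 bases each, running from 250 bases before to 50 bases after the start of the gene. The following 100-base stretches end at the base before the start and are shown because they belong to genes with the largest rises in their class at 8 h (Psmc4, Psmd6 and Psmg1) and to 3 of the 4 members that fell at 8 h (Psmd10, Psmb10 and Psme1). Each is written on the strand of its gene, and capitals mark CCGGAAG or CCAAT on either strand, so that ATTGG is CCAAT read from the other strand. Of the same stretches not shown, those of Psmb3 and Psme3, the largest rises in their classes by the probe sets used, hold CCAAT. Those of Psma7, the largest rise of the alpha ring, and of Psme2, which fell, hold neither sequence.
Psmc4: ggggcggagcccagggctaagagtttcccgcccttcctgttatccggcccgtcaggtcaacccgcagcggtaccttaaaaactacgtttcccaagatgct
Psmd6: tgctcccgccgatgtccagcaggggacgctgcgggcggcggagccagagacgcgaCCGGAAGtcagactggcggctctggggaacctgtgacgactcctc
Psmg1: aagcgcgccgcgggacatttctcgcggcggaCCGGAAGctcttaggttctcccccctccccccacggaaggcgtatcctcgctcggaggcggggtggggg
Psmd10: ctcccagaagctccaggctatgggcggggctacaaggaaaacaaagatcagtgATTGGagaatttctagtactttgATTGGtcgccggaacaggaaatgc
Psmb10: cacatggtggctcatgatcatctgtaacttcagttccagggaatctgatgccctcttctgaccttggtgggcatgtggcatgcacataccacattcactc
Psme1: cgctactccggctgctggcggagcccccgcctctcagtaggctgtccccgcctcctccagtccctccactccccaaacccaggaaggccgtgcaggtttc
The stretches lie upstream of the first exon at chr7:28050093-28050192 (reverse strand, Psmc4), chr14:14120946-14121045 (reverse strand, Psmd6), chr16:95990961-95991060 (reverse strand, Psmg1), chrX:140956712-140956811 (reverse strand, Psmd10), chr8:105938393-105938492 (reverse strand, Psmb10) and chr14:55578394-55578493 (forward strand, Psme1).

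Across the 300-base promoters, CCGGAAG, a core bound by ETS family factors, was found on either strand in 17 of the 43 member promoters (39.5%), against 8.86% of the 32851 promoters in the table. These 17 promoters belonged to 16 genes, of which 13 rose at 8 h and 0 fell, while 31 of the 39 members with a promoter rose at 8 h and 4 fell. The CCAAT box was found in 34.9% of member promoters and 37.4% of all promoters, and of its 15 member genes 11 rose at 8 h and 1 fell. TGACNNNGC, the core of the antioxidant response element, was found in 14% of member promoters and 12.4% of all. The core of the interferon-stimulated response element was found in 11.6% against 3.44%. Its 5 member genes were Psmb3, Psmd4, Psmd9, Psme1 and Psmg4, of which 4 rose at 8 h and 1, Psme1, fell. It was not found for Psmb10 or Psme2. TTCNNNGAA, a STAT site, was found in 4.65% against 8.3%, and TGACGTCA, the cAMP response element, in 0 of 43 against 1.79%. All motifs were searched on both strands, and hits that share bases were each kept. A match describes letters in this window and says nothing about binding.

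Each array gave log2 intensities, with medians between 7.89 and 8.07, and all 47 members were above a log2 value of 6 in all 27 arrays. That value is no background limit: Psma8 (6.21 to 6.76 over all arrays) lay in the range of markers of other cell types such as Ptprc (6.06 to 6.44) and Epcam (6.54 to 7.01), as did Psmb11 in part (6.93 to 7.51), so neither was shown to be above background. Psmg3 (7.47 to 8.18) overlapped the epithelial marker Krt18 (7.53 to 7.98), so it too was not shown to be above background. Arrays have no read depth, so the number of arrays limits the precision, and differences below are log2 differences with the standard error of limma's model. The transgene was checked first through the Isl1 probe set. Isl1 read 7.37, 7.47 and 7.17 in the vector arrays at 0 h and 12.64, 12.62 and 12.61 in the ISL1 arrays at 0 h. It was not flat in vector cells, at 8.65, 8.64 and 8.49 at 2 h and 7.97, 8.00 and 8.09 at 8 h. At 48 h the labels ran the other way: the arrays labelled ISL1 read 7.48, 8.01 and 7.47, and the arrays labelled vector read 12.79, 12.76 and 12.72. The 48 h arrays are therefore described by their signal, as low-Isl1 (labelled ISL1) and high-Isl1 (labelled vector), and every direction that rests on them depends on that reading.

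The cells also differed in state between groups. Of 7 adipocyte markers, 7 were lower in the ISL1 than in the vector arrays at 0 h, and their mean log2 level ran from 10.89 to 11.00 in vector arrays at 0 h, 10.32 to 10.51 at 8 h, 12.02 to 12.17 in low-Isl1 arrays at 48 h, 8.53 to 8.67 in ISL1 arrays at 0 h and 10.26 to 10.44 in high-Isl1 arrays at 48 h. Of 8 preadipocyte markers, 6 were lower at 8 h than at 0 h, and their mean level ran from 12.27 to 12.37 at 0 h, 11.61 to 11.65 at 8 h, 11.05 to 11.19 and 11.01 to 11.14 in low-Isl1 and high-Isl1 arrays at 48 h, and 11.86 to 11.92 in ISL1 arrays at 0 h. Of 6 macrophage markers, Lyz2 was lower by -4.84 in ISL1 than in vector arrays at 0 h and none of the other 5 passed the test, so that the list's mean level ran from 6.80 to 6.91 against 7.69 to 7.77. Mean levels of 4 endothelial and 4 epithelial markers ran from 6.79 to 7.23 and from 7.36 to 7.75 over all arrays. Single markers moved more: in vector cells the macrophage gene Cd68 rose by 1.03 at 4 h and 0.90 at 8 h, Lyz2 fell by 0.67 at 8 h and the endothelial gene Cdh5 rose by 0.65 at 4 h and 0.80 at 8 h, while Tek was higher by 0.56 in ISL1 arrays at 0 h. No marker is at 0 on this scale, and the part of these markers in the proteasome values was not tested. In bulk RNA, fewer cells of a type and less RNA per cell cannot be told apart.

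Few proteasome transcripts changed in the first 2 h after induction. At 0.5 h, 0 of 47 members passed the test (limma with Benjamini-Hochberg adjustment over 19938 genes, adjusted p under 0.05), where 0.777% of all genes were called higher and 0.502% lower. At this time 1 of 47 members had an unadjusted p under 0.05, against 6.29% of all genes. At 1 h the core chaperone Psmg2 was called lower and no other member passed the test, against a background of 2.78% higher and 4.29% lower. The call of Psmg2 (-0.27) was lost without vector array 1 at 0 h (-0.27), vector array 3 at 0 h (-0.23), or arrays 1 (-0.24) and 3 (-0.24) at 1 h, which leaves a count of 0.

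At 2 h, 4 members were higher and 5 lower, against 10.9% and 17.5% of all genes, with a median over the members of 0.04 against 0.00 over all genes. With each array centred on its median the split was 4 higher and 3 lower. The 4 that rose were Psma7 of the alpha ring (0.46 ± 0.10), Psme4 (0.32 ± 0.068), Psme3 (0.25 ± 0.056) and the ATPase Psmc4 (0.19 ± 0.055). Psme3 stood at 11.89, 12.06 and 11.97 at 0 h and at 12.25, 12.20 and 12.22 at 2 h, with no overlap between the groups. The 5 that fell were Psmd10 (-0.44), Psme3ip1 (-0.38), Psmg2 (-0.34), Psmb10 (-0.24) and Psmd5 (-0.19), so that 3 of the 7 assembly chaperones were lower at this time. The call of Psmb10 was lost without either of vector arrays 1 (-0.21) and 2 (-0.23) at 0 h or arrays 1 (-0.20) and 2 (-0.25) at 2 h, and that of Psmc4 without vector array 3 at 0 h (0.14) or array 2 at 2 h (0.16).

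Most core and cap transcripts were higher at 8 h than at 0 h. At 4 h, 16 members were higher and 3 lower, against 17.3% and 22.7% of all genes, and the median was 0.13 against 0.03 for all genes. At 8 h, 38 members were higher and 4 lower, against 24.2% and 21.9%, and the median was 0.33 against 0.07. An F test over the 6 vector groups from 0 to 8 h called 40 of the 47 members (85.1%), against 51.7% of all genes. Highly expressed genes are called more often on these arrays: among the 5212 genes with a mean log2 level over 10, 38.6% were higher and 34.4% lower at 8 h with a median of 0.03, and the 39 members among them gave 33 higher and 3 lower with a median of 0.37.

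The rise was small for each gene and shared by the arrays. The median over the 47 members, taken from the mean of the vector arrays at 0 h, was 0.02, 0.00 and -0.04 in those arrays themselves, 0.04, 0.03 and 0.09 at 2 h, 0.09, 0.15 and 0.12 at 4 h and 0.30, 0.40 and 0.33 at 8 h. The 8 h arrays thus lay above all earlier arrays by this summary, and 0 members changed by 2-fold or more at 8 h, where 3.04% of all genes passed the test with at least a 2-fold rise and 3.86% with at least a 2-fold fall. Among the 6 early groups, 38 members had their highest mean at 8 h, 4 at 2 h, 2 at 4 h and 3 at 0 h, where 38.5%, 10.2%, 14.5% and 17.6% of all genes did. By first passing the test as higher, 4 members did so at 2 h, 13 at 4 h and 22 at 8 h (8.3%, 7.93% and 9.31% of all genes), and 8 did not (71.6%). From 2 h to 4 h, 12 members rose and 2 fell (13.7% and 14.2% of all genes), a total of 14 that was 8 without vector array 2 at 4 h, 9 with median-centred arrays and 22 after a further quantile normalization. The 12 rises included 0 of 8 alpha genes, 0 of 9 beta genes and 5 of 11 cap non-ATPases. From 4 h to 8 h, 25 rose and 2 fell (13.7% and 10.2% of all genes), against 9 and 2 with median-centred arrays. The 25 rises included 4 alpha genes, 4 beta genes and 6 cap non-ATPases.

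**Figure D1:**
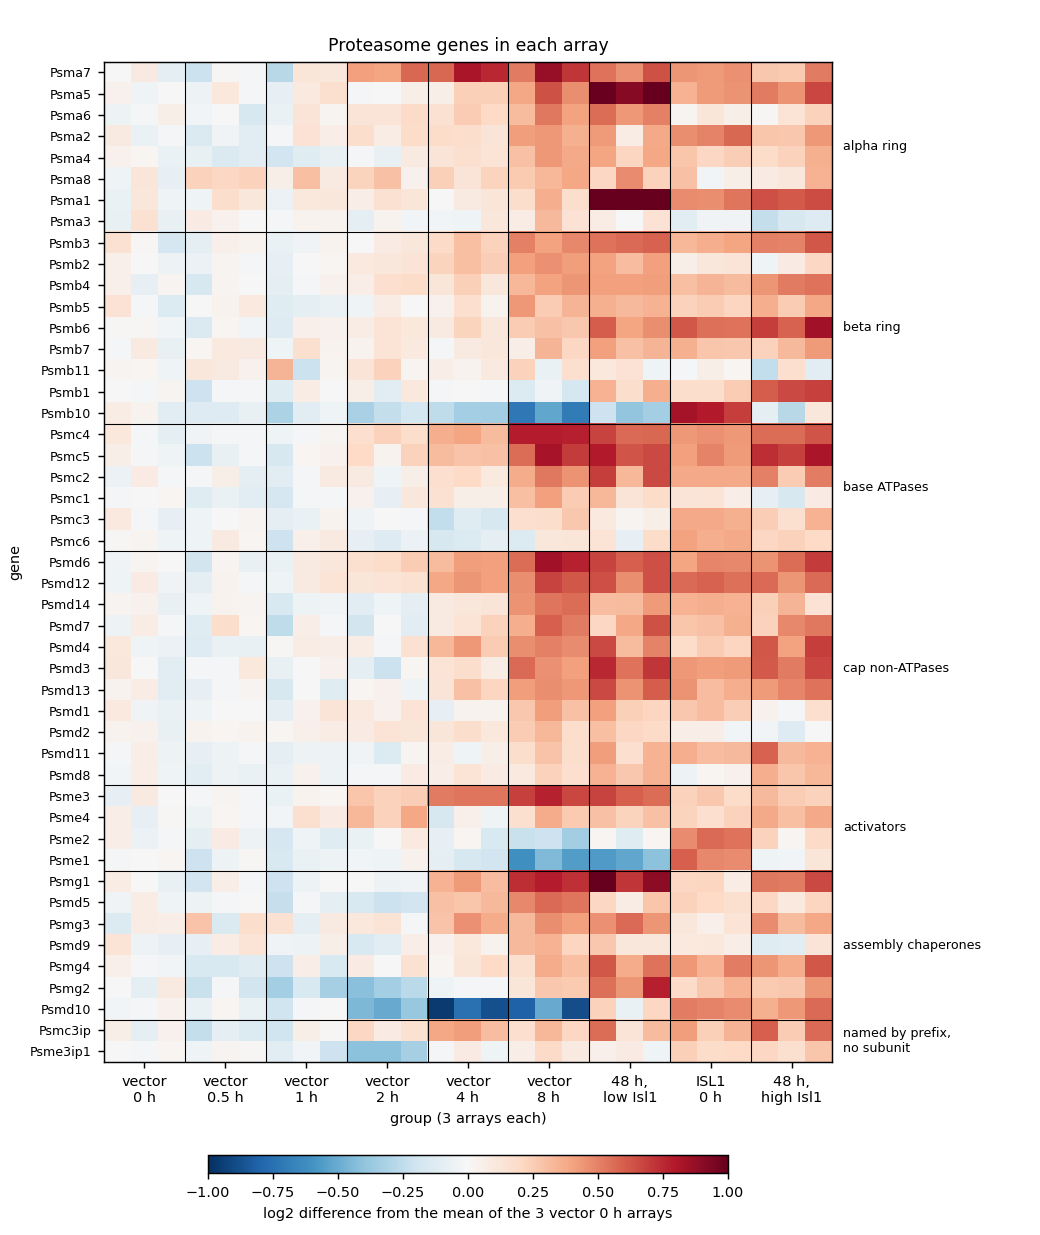
Log2 difference of each of the 47 members (rows, by class) from its mean in the vector arrays at 0 h, in each of the 27 arrays (columns, by group), with values beyond either end of the colour bar drawn in its end colour. The 8 h columns are mostly above 0 in the core and cap rows, while the rows of Psmb10, Psme1, Psme2 and Psmd10 fall at 8 h.

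**Figure D2:**
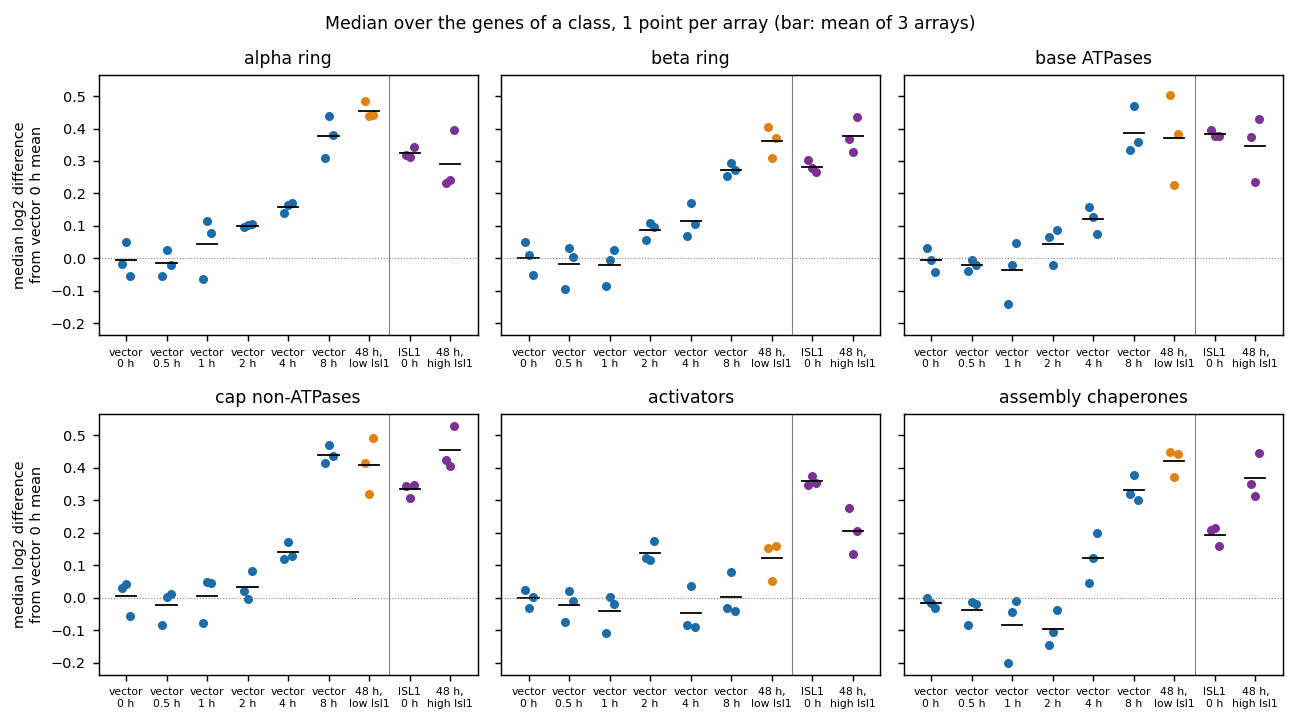
Median log2 difference from the vector 0 h mean over the members of each of 6 classes (panels), one point per array and a bar at the mean of the 3 arrays, across the 9 groups. At 8 h the cap non-ATPases lie between 0.41 and 0.47, and the activators between -0.04 and 0.08.

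In the alpha ring, which gates the core, 8 of 8 genes were called higher at 8 h, with a median of 0.39; 1 of them, Psma8, was not shown to be above background. Psma7 moved earliest. It read 10.29, 10.38 and 10.19 at 0 h, 10.70, 10.68 and 10.86 at 2 h, 10.86, 11.10 and 11.04 at 4 h and 10.81, 11.16 and 11.00 at 8 h. All arrays from 2 h on lay above all 0 h arrays, and the difference was 0.71 at 4 h (adjusted p = 2.41e-06) and 0.70 ± 0.10 at 8 h (adjusted p = 2.72e-06). Psma5 did not pass the test at 2 h (0.01) or 4 h (0.18) and reached 0.49 ± 0.082 at 8 h. Psma1, whose largest change came later, rose by 0.24 ± 0.071 at 8 h. The remaining 5 lay between 0.18 (Psma3) and 0.42 (Psma6), and included Psma8, the paralogue of Psma7 used in testis, at 0.33.

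In the beta ring 6 of 9 genes were higher at 8 h and 1 lower, with a median of 0.27. Of the constitutive catalytic subunits, Psmb5 (chymotrypsin-like) rose by 0.34 ± 0.066, Psmb6 (caspase-like) by 0.27 ± 0.070 and Psmb7 (trypsin-like) by 0.21 ± 0.072. By the probe set used, Psmb3, a structural subunit, gave the largest rise of the ring. It read 13.21, 13.07 and 12.89 at 0 h and 13.56, 13.46 and 13.54 at 8 h, without overlap (0.46 ± 0.069, adjusted p = 2.54e-06). A separate probe set for Psmb3 gave 0.35 at 8 h, below the values of Psmb2 and Psmb4. Psmb2 and Psmb4, also structural, rose by 0.43 and 0.39. Psmb1 (-0.11, adjusted p = 0.191) and the thymus subunit Psmb11 (0.11, adjusted p = 0.422) did not pass the test; the 95% interval for Psmb11 ran from -0.11 to 0.33.

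Psmb10, which replaces Psmb7 in the immunoproteasome, went the other way. Its arrays read 9.49, 9.45 and 9.31 at 0 h, 9.09, 9.18 and 9.24 at 2 h, 9.16, 9.08 and 9.07 at 4 h and 8.70, 8.90 and 8.72 at 8 h. All arrays at 8 h were below all earlier vector arrays. The difference from 0 h was -0.31 at 4 h (adjusted p = 0.00439) and -0.64 ± 0.086 at 8 h (adjusted p = 6.27e-07), and it fell from 4 h to 8 h by 0.33.

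Among the base ATPases, which unfold the substrate, 5 of 6 were higher at 8 h, with a median of 0.38. Psmc4 had the largest rise of all members. Its arrays read 11.32, 11.20 and 11.12 at 0 h, 11.38, 11.44 and 11.39 at 2 h, 11.58, 11.61 and 11.53 at 4 h and 12.00, 12.00 and 11.99 at 8 h. The groups from 0 h through 2 h and 4 h to 8 h did not overlap, and the 8 h difference was 0.78 ± 0.055 (1.72-fold, adjusted p = 6.21e-12). Psmc5 followed with 0.69 ± 0.077, and Psmc2 and Psmc1 with 0.45 and 0.32. Psmc3 was lower at 4 h (-0.17, adjusted p = 0.0255), a call lost without vector array 1 at 0 h (-0.12) or array 1 at 4 h (-0.14), and higher at 8 h (0.21). Psmc6 did not pass the test at 8 h (0.03, adjusted p = 0.76).

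The 11 non-ATPase subunits of the cap were all called higher at 8 h, with a median of 0.48. Psmd6, a scaffold subunit of the lid, rose most. It read 11.04, 11.10 and 11.08 at 0 h, 11.39, 11.49 and 11.48 at 4 h and 11.63, 11.91 and 11.84 at 8 h. These 3 groups did not overlap, and the difference at 8 h was 0.72 ± 0.076 (adjusted p = 9.55e-09). The lid scaffold Psmd12 rose by 0.58 ± 0.067 and Psmd14, the deubiquitinase of the lid, by 0.51 ± 0.060. Psmd4, a ubiquitin receptor, rose by 0.48 ± 0.080, and the large base subunits Psmd1 and Psmd2 by 0.33 and 0.25. The smallest rise was that of Psmd8, by 0.17.

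The activators divided at 8 h, with 2 higher and 2 lower. Psme3 read 12.49, 12.51 and 12.51 at 4 h and 12.66, 12.74 and 12.64 at 8 h, all above its 0 h arrays. Its difference from 0 h was 0.70 ± 0.056 at 8 h (adjusted p = 6.25e-11). Psme4 rose at 2 h, was not different by the test at 4 h (-0.05) and was higher again at 8 h (0.27 ± 0.068), so its course was not one-directional.

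Both genes of PA28 fell. Psme1 read 11.01, 11.03 and 11.05 at 0 h, 10.94, 10.87 and 10.84 at 4 h and 10.42, 10.59 and 10.47 at 8 h. The 8 h arrays were below every earlier vector array, and the difference was -0.53 ± 0.068 (adjusted p = 2.34e-07). Psme2 read 11.98, 11.85 and 11.90 at 0 h and 11.69, 11.70 and 11.56 at 8 h, again without overlap, and differed by -0.26 ± 0.073 (adjusted p = 0.00418). Psme2 has a closely similar mouse copy, and the signal of its probe set was not divided between them here.

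Of the assembly chaperones 6 of 7 were higher at 8 h, with a median of 0.30. They included Psmg3, which was not shown to be above background. Psmg1, which builds the alpha ring together with Psmg2, read 10.36, 10.28 and 10.21 at 0 h, 10.63, 10.71 and 10.59 at 4 h and 11.02, 11.07 and 11.01 at 8 h. The 3 groups did not overlap, and the 8 h difference was 0.75 ± 0.078 (adjusted p = 8.05e-09). Psmg2 was lower at 2 h and higher at 8 h (0.22 ± 0.083), and the base chaperone Psmd5 was likewise lower at 2 h, then higher at 4 h (0.30) and 8 h (0.53).

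Psmd10 (gankyrin), a base chaperone also known as an oncoprotein, had the largest fall of the family in the vector time course. It read 10.41, 10.42 and 10.48 at 0 h, 9.99, 9.93 and 10.06 at 2 h, 9.48, 9.69 and 9.56 at 4 h and 9.63, 9.93 and 9.55 at 8 h. All arrays from 2 h to 8 h were below all arrays up to 1 h. The difference was -0.86 ± 0.089 at 4 h (adjusted p = 7.76e-09) and -0.73 ± 0.089 at 8 h. The genes that carry only the prefix, Psmc3ip (0.23, adjusted p = 0.0509) and Psme3ip1 (0.12, adjusted p = 0.113), did not pass at 8 h.

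**Figure D3:**
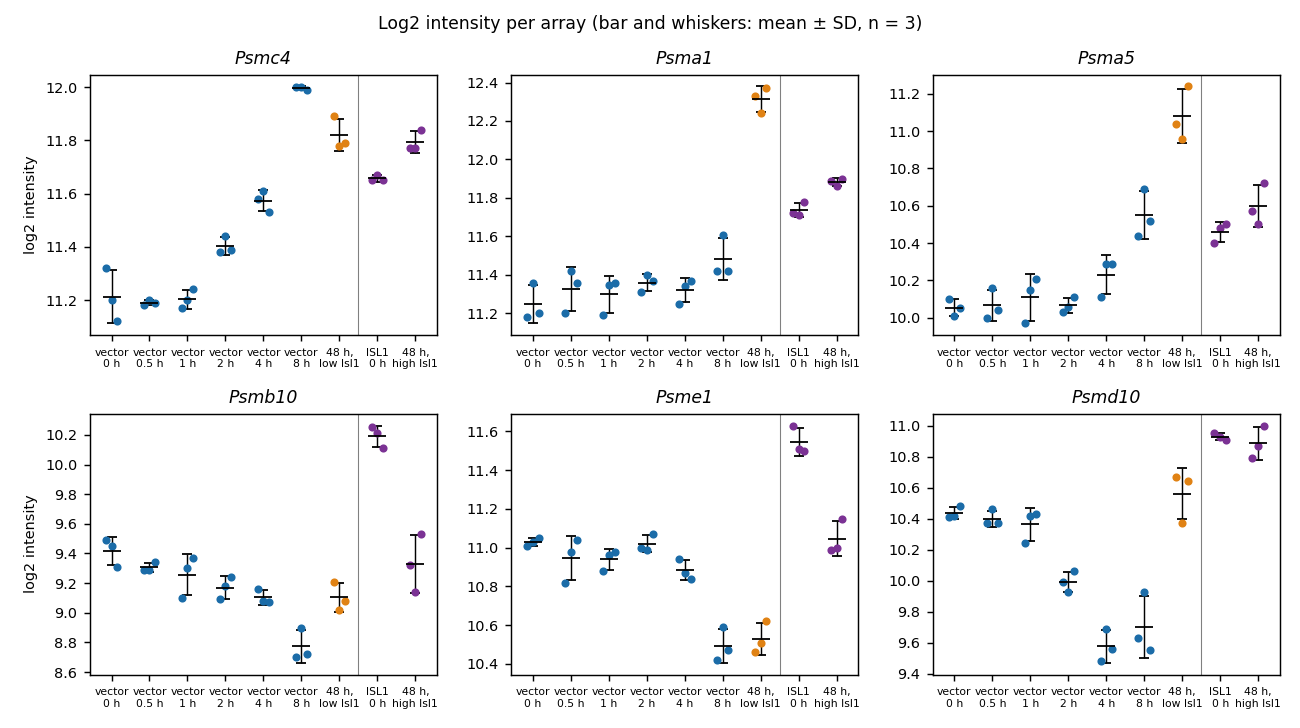
Log2 intensity of 6 members in each array (points) with mean ± SD (n = 3 arrays) by group, and separate vertical scales for each gene. Psmc4 is highest at 8 h, Psma1 and Psma5 are highest in the low-Isl1 arrays at 48 h, Psmb10 and Psme1 are highest in the ISL1 arrays at 0 h, and Psmd10 is lowest at 4 h and 8 h.

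At 48 h the low-Isl1 arrays (labelled ISL1) were also above the start. Against the vector arrays at 0 h, 37 members were higher and 2 lower, where 21.3% and 20% of all genes were, with a median of 0.35 against 0.06 for all genes. Taking the labels as given, with the arrays labelled vector in their place, 35 were higher and 0 lower. The medians per array over the 47 members were 0.41, 0.31 and 0.38. Between the same groups Lyz2 fell by 4.49, Cd68 rose by 0.63, 6 of 7 adipocyte markers rose and 8 of 8 preadipocyte markers fell, and the part of these in the proteasome values was not tested. These arrays share the vector 0 h arrays with the 8 h comparison, so the sets of calls are not independent. By class, 7 of 8 alpha genes, 7 of 9 beta genes, 4 of 6 ATPases, 11 of 11 cap genes, 2 of 4 activators and 5 of 7 chaperones were higher.

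Psma1 and Psma5 of the alpha ring were the 2 members at least 2-fold higher in this comparison, where 2.49% of all genes were. Psma1 read 11.18, 11.36 and 11.20 at 0 h, 11.42, 11.61 and 11.42 at 8 h and 12.33, 12.24 and 12.37 in the low-Isl1 arrays at 48 h. The last group lay apart from all the others, at 1.06 ± 0.071 over 0 h (2.09-fold, adjusted p = 1.97e-12) and 0.83 over 8 h (adjusted p = 4.53e-10). Psma5 read 10.10, 10.01 and 10.05 at 0 h and 11.04, 10.96 and 11.24 at 48 h, a difference of 1.02 ± 0.082 (adjusted p = 6.61e-11). A separate probe set for Psma5 gave 0.88. With the arrays labelled vector in their place the differences from 0 h were 0.64 for Psma1 and 0.55 for Psma5, and 0 members reached 2-fold.

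Among the other classes the largest differences from 0 h were those of Psmg1 (0.88 ± 0.078), Psmc5 (0.69 ± 0.077), Psmd3 (0.67 ± 0.073), Psme3 (0.61 ± 0.056) and Psmb3 (0.57 ± 0.069, but 0.43 by a separate probe set). Under the labels as given these were 0.57, 0.75, 0.60, 0.27 and 0.54. The 2 that stayed lower were Psme1, at 10.46, 10.51 and 10.62 (-0.49 ± 0.068, adjusted p = 8.99e-07), and Psmb10, at 9.21, 9.02 and 9.08 (-0.31 ± 0.086, adjusted p = 0.00434). With the labels as given, those values were 0.02 for Psme1 and -0.09 for Psmb10, and neither passed the test. Psmd10 was back near its start, at 10.67, 10.37 and 10.64 (0.12, adjusted p = 0.297).

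Between 8 h and the low-Isl1 arrays at 48 h, 11 members were higher and 3 lower, against 15.7% and 14.9% of all genes, with a median of 0.01. The total of 14 was 8 without vector array 3 at 8 h, 8 without low-Isl1 array 1, 9 without low-Isl1 array 3 and 7 with median-centred arrays. With the labels as given, 9 were higher and 12 lower. Psmd10 (0.86 ± 0.089) and Psma1 (0.83) had the largest rises, followed by Psma5 (0.53), Psmb1 (0.41), Psmg2 (0.37) and Psmb10 (0.33). Psmd5 fell by 0.34. By the labels as given the order was Psmd10 (1.18), Psmb1 (0.76), Psme1 (0.55), Psmb10 (0.55) and Psmb6 (0.43), with Psma1 at 0.40 and Psma5 at 0.05, and Psme3 fell most, by 0.44.

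Before induction the ISL1 arrays already had higher proteasome transcript levels than the vector arrays. At 0 h, 36 of 47 members were higher with ISL1 and 0 lower, where 15.3% of all genes were higher and 10.4% lower. At an unadjusted p under 0.05 the numbers were 37 and 0. The median was 0.32 against -0.01 for all genes, and the medians per array were 0.33, 0.31 and 0.33. Among genes with a mean level over 10, 26% were higher and 19.2% lower, and the 39 members among them gave 32 and 0. By class, 5 of 8 alpha genes, 7 of 9 beta genes, 5 of 6 ATPases, 9 of 11 cap genes, 4 of 4 activators, 4 of 7 chaperones and 2 of 2 prefix genes were higher. The 7 adipocyte markers, all lower here (median -2.32), and Lyz2 (-4.84) moved with this contrast, and their part in it was not tested. An effect of the construct and any other difference between the infected cultures cannot be told apart.

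The antigen-processing members, which fell during induction, were among the largest of these differences. Psmb10 read 10.25, 10.21 and 10.11 in the ISL1 arrays, all above its vector arrays of 9.31 to 9.49. Its difference was 0.78 ± 0.086 (adjusted p = 8.12e-08). Psme1 read 11.63, 11.51 and 11.50 with ISL1 against 11.01 to 11.05 with vector, a difference of 0.52 ± 0.068 (adjusted p = 1.01e-06), and Psme2 read 12.38, 12.48 and 12.45 against 11.85 to 11.98, a difference of 0.52 ± 0.073. In each of these 3 genes the groups did not overlap. Each of the 3 was lower in vector arrays at 8 h than at 0 h, a comparison that uses the same vector 0 h arrays.

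Constitutive members gave differences of similar size. The catalytic Psmb6 was higher by 0.57 ± 0.070, the lid scaffold Psmd12 by 0.57 ± 0.067, Psma2 by 0.52 ± 0.076, Psma1 by 0.49, Psmd10 by 0.49 and the ATPase Psmc5 by 0.45. Psmd12 read 11.55, 11.58 and 11.54 with ISL1 and 10.94, 11.07 and 10.95 with vector, without overlap. Psmc6, which did not pass at 8 h, was higher by 0.38 (adjusted p = 0.000431), at 11.89, 11.85 and 11.87 against 11.50, 11.52 and 11.45. Among the 11 that did not pass were Psmd8 (0.00, adjusted p = 0.993), Psmd2 (0.04, adjusted p = 0.747), Psmb2 (0.10) and Psmg1 (0.16, adjusted p = 0.141), although each of these was higher at 8 h in vector cells.

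The course under high Isl1 was read from 0 h and 48 h. Comparing the high-Isl1 arrays at 48 h (labelled vector) with the ISL1 arrays at 0 h, 8 members were higher and 4 lower, against 14.2% and 19% of all genes, with a median of 0.04 against 0.03. With the labels as given, 16 were higher and 8 lower, and after a further quantile normalization 12 were higher and 9 lower. Psmb1 (0.44 ± 0.070), Psmg1 (0.40), Psmd4 (0.36), Psmd8 (0.32) and Psmc5 (0.30) rose. Under the labels as given the largest rises were those of Psmg1 (0.72), Psma5 (0.62) and Psma1 (0.57), and Psmb1 (0.09) did not pass. Psmb1, a structural beta subunit, read 11.19, 11.19 and 11.27 at 0 h and 11.62, 11.67 and 11.70 at 48 h, with no overlap.

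The antigen-processing members were also lower in this comparison. It uses the same ISL1 0 h arrays in which they were higher than in vector arrays, so these results are not independent. Psmb10 read 9.32, 9.14 and 9.53 in the high-Isl1 arrays at 48 h, a difference of -0.86 ± 0.086 from ISL1 at 0 h (adjusted p = 5.98e-09). Psme1 read 10.99, 11.00 and 11.15 (-0.50, adjusted p = 1.03e-06) and Psme2 read 12.14, 11.93 and 12.10 (-0.38, adjusted p = 0.000123). None of these groups overlapped the ISL1 arrays at 0 h, and with the labels as given the 3 differences were -1.09, -1.01 and -0.55. The fourth lower member, Psmd1, differed by -0.21, a call lost without ISL1 arrays 1 (-0.21) or 2 (-0.19) at 0 h or high-Isl1 arrays 1 (-0.20) or 2 (-0.16), and its value was 0.01 with the labels as given.

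At 48 h itself the high-Isl1 arrays were lower than the low-Isl1 arrays in 11 members and higher in 6, against 14% and 13.8% of all genes, with a median of -0.04 against -0.03. With median-centred arrays 7 were lower and 6 higher, and in a fit of these groups alone 7 were lower and 3 higher. Every sign in this comparison turns with the labels as given. In the alpha ring, 4 of 8 were lower and 0 higher, including Psma5 (-0.48 ± 0.082) and Psma1 (-0.43 ± 0.071). Psma1 read 11.89, 11.86 and 11.90 in high-Isl1 arrays, all below the low-Isl1 arrays and above every 0 h array of either construct. Psme3 (-0.34), Psmg1 (-0.32), Psmb2 (-0.29) and Psmd2 (-0.29) were also lower. Psme1 was higher by 0.51 ± 0.068 (adjusted p = 1.08e-06) and Psmb1 by 0.35, while Psmb10 missed the threshold (0.22, adjusted p = 0.0559). Psmd10 was higher by 0.33, a call lost without low-Isl1 array 2 (0.23).

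The difference between high-Isl1 and low-Isl1 arrays was not the same at 0 h and 48 h. The interaction, the difference between high and low Isl1 at 48 h minus that between ISL1 and vector at 0 h, was below 0 and past the test in 27 members and above 0 in 0, against 13.2% and 11.4% of all genes. At an unadjusted p under 0.05 the numbers were 35 and 0. The median was -0.35 against -0.02 for all genes. With the labels as given it was past the test and below 0 in 25 members and above 0 in 3. With the arrays placed by signal, the members below 0 and past the test were 6 of 8 alpha genes, 5 of 9 beta genes, 4 of 6 ATPases, 7 of 11 cap genes, 2 of 4 activators and 3 of 7 chaperones. Markers moved in this contrast too: Lyz2 was at 4.04, Cd68 at -0.49 and the endothelial gene Tek at -0.71, while 5 of 8 preadipocyte markers were above 0 and 0 below, and 4 of 7 adipocyte markers above and 1 below. Their part in the proteasome values was not tested.

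With the 48 h arrays placed by signal, the largest interaction was that of Psma1 at -0.92 ± 0.10 (adjusted p = 7.13e-08), where the high-Isl1 arrays were higher at 0 h and lower at 48 h. Psma5 followed with -0.88 ± 0.12, then Psmd12 (-0.63 ± 0.095), Psme3 (-0.57 ± 0.080) and Psmb10 (-0.55 ± 0.12). In Psmd12 the difference was 0.57 at 0 h and -0.06 at 48 h. Under the labels as given the order was another: Psme1 (-1.04 ± 0.096) came first, ahead of Psmb10, Psmd12 was at -0.51, and Psma1 (-0.06), Psma5 (0.07) and Psme3 (0.12) did not pass the test. By signal, Psme1 was higher in high-Isl1 arrays by 0.52 at 0 h and by 0.51 at 48 h, an interaction of -0.01 (adjusted p = 0.985, 95% interval -0.20 to 0.19), while with the labels as given the 48 h difference was -0.51. For Psmd8 both differences were 0.00, and neither passed the test. The interaction is built from the same arrays as the differences at each time.

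**Figure D4:**
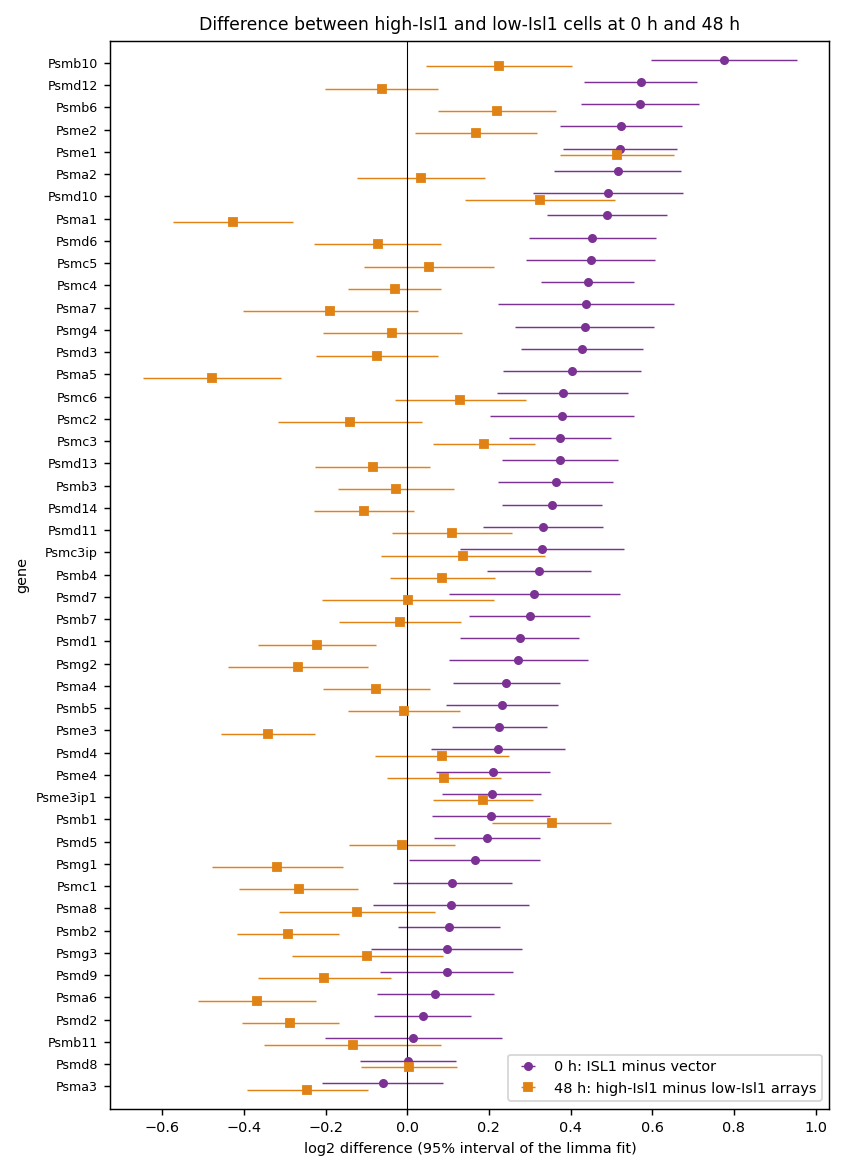
Log2 difference of each of the 47 members (rows, ordered by the 0 h value) between ISL1 and vector arrays at 0 h (purple circles) and between high-Isl1 and low-Isl1 arrays at 48 h (orange squares, 48 h arrays placed by Isl1 signal), with lines for the 95% interval of the limma fit. Nearly every circle is right of 0, the squares lie on both sides of it, and for Psme1 the circle (0.52) and square (0.51) nearly coincide. With the 48 h labels as given every square would change sign.

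Other genes of the pathway were read from lists, beside 24.2% of all genes higher and 21.9% lower at 8 h, and 15.3% and 10.4% in ISL1 arrays at 0 h. Of 9 proteasome partners outside the symbol rule, 4 were higher and 1 lower at 8 h. Pomp, the chaperone that matures the core, rose by 0.28 at 2 h, 0.48 at 4 h and 0.70 ± 0.074 at 8 h (adjusted p = 1.03e-08). The cap deubiquitinases Uchl5 (0.64) and Usp14 (0.47) rose at 8 h and were also higher in ISL1 arrays at 0 h (0.66 and 0.47). Txnl1, a thioredoxin-like cap protein, rose at 1 h (0.42 ± 0.083) and 2 h (0.74 ± 0.083), and Akirin2, which helps import proteasomes into the nucleus, fell at 2 h (-0.57), 4 h (-0.36) and 8 h (-0.26).

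Among 11 genes that encode regulators of proteasome transcription, 5 were higher and 2 lower at 8 h. Nfe2l1 fell by 0.48 at 4 h and by 0.39 at 8 h. The small Maf proteins, its dimer partners, rose: Maff by 3.12 ± 0.14 at 2 h and 1.07 at 8 h, Mafg by 0.98 at 2 h and 1.62 at 8 h, and Mafk by 1.45 at 2 h and 0.80 at 8 h. Nfe2l2 was higher at 2 h (0.45) and 4 h (0.21). In ISL1 arrays at 0 h, 1 of the 11 was higher, Keap1 (0.37, adjusted p = 0.0141), and 0 were lower.

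Of 6 genes for ubiquitin-activating and ubiquitin-conjugating enzymes, 3 were higher and 0 lower at 8 h: the conjugating enzymes Ube2n (0.51) and Ube2k (0.46) and the activating enzyme Uba6 (0.41). No gene for ubiquitin itself was among the 6. Of 14 delivery factors and unfoldase genes, 9 were higher and 0 lower at 8 h. They included the shuttle proteins Ubqln4 (1.27 ± 0.097, adjusted p = 2.81e-11) and Rad23b (0.39) and the proteasome-bound ligase Ube3c (0.65), while the unfoldase Vcp rose by 0.23. In ISL1 arrays at 0 h, 5 were higher and 1 lower, with Ubqln4 at 0.55.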

How the data were processed

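Gene expression was measured on 27 Affymetrix mouse gene arrays, in 9 groups of 3. The deposited values are log2 intensities made by the authors with RMA, per the submitters' processing notes; array files were not used here. RMA summarises background-corrected, quantile-normalized probes, so a shift of all genes would be removed. Of 28853 probe sets, 21789 carried 1 symbol in the platform annotation, 1621 carried several and 5443 none. Probe sets with 1 symbol were kept, and the one with the highest mean represented each of 19938 genes. In R 4.3.3, limma 3.58.1 fitted 1 mean per group over all arrays with eBayes, and p-values were adjusted by Benjamini-Hochberg over all genes at 0.05. P-values rest on 1 spread per gene between arrays of a group, pooled over all 9 groups and moderated, and not on that of the compared groups alone. Named genes were, for each comparison and class, the largest rise and fall past the test, along with Psmb10, Psme1 and Psme2. Not every value of theirs is printed, and other members were given as examples. The members and lists were chosen with earlier results of these data known. Groups came from the labels, and the 48 h arrays were read by their Isl1 signal. Alternatives were other normalizations, filters, probe set rules and moderation, a replicate block, fits of fewer arrays and the labels as given. In 4 of 36 pairs of groups every same-number correlation was over 0.1. They were the 48 h groups (0.22 to 0.55) and, in vector cells, 0.5 h with 1 h (0.31 to 0.59), 0.5 h with 4 h (0.14 to 0.37) and 1 h with 4 h (0.17 to 0.50). Of the comparisons between single groups, only that at 48 h joined such a pair, so its arrays alone were taken as paired. The vector pairs enter the F test and the 48 h pair the interaction. The main counts of all comparisons came from the fit without pairing. The fitting code was tested on simulated data.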

Additional observations from a re-analysis of the deposited data

Results flagged for a closer look

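The difference between high-Isl1 and low-Isl1 arrays changed from 0 h to 48 h in 27 of the 47 members by the interaction test in limma; construct and culture cannot be told apart. Each value is the difference between high and low Isl1 at 48 h minus that between ISL1 and vector at 0 h, on the log2 scale, with the 48 h arrays placed by Isl1 signal. Among the members with the lowest value in their class it was -0.92 for the alpha subunit Psma1 and -0.55 for the inducible beta subunit Psmb10. It was -0.52 for the ATPase Psmc2 and -0.63 for the lid subunit Psmd12. The activators gave -0.57 for Psme3 and -0.35 for Psme2, and the chaperone Psmg2 gave -0.54. With the labels as given, the value for Psme3 was 0.12, and those for Psma1 (-0.06), Psmc2 (-0.24) and Psmg2 (-0.0047) did not pass the test. Groups of 3 arrays are too small for a test of single outlying arrays.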

How the results depend on the processing

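Named genes gave 88 values, not all of them printed above. None reversed under another normalization, filter, probe set rule, moderation or choice of arrays. Median centring lost 13 calls, fitting the compared groups alone 10 and a further quantile normalization 1; leaving out 1 array lost 37 calls of 570, spread over 12 values. The 48 h labels as given were fitted for the interaction and for the comparisons of 48 h with 8 h or 0 h. There 6 calls were lost and 3 values reversed. These were Psme1 in low-Isl1 48 h against vector 0 h (0.020), Psmd1 in high-Isl1 48 h against ISL1 0 h (0.014) and the interaction of Psme3 (0.12). Left out of these numbers was high against low Isl1 at 48 h, where the labels as given turn every sign.

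With median-centred arrays the count of members past the test was 0 at 1 h, 9 from 2 h to 4 h, 11 from 4 h to 8 h and 7 from 8 h to low-Isl1 48 h. After a further quantile normalization it was 2 at 1 h, 22 from 2 h to 4 h and 21 for high-Isl1 48 h against ISL1 0 h. In fits of the compared groups alone it was 0 at 1 h, 7 from 8 h to low-Isl1 48 h and 10 between high and low Isl1 at 48 h. Labels as given raised the count to 24 for high-Isl1 48 h against ISL1 0 h. Without the 48 h arrays, a fit chosen after seeing the data, the counts were 43 at 8 h, 36 for ISL1 at 0 h and 40 for the F test.

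Leaving out each array in turn gave counts from 0 to 0 at 0.5 h, 0 to 1 at 1 h, 6 to 8 at 2 h, 16 to 18 at 4 h, 36 to 42 at 8 h, 8 to 13 from 2 h to 4 h and 18 to 26 from 4 h to 8 h. For 48 h the ranges were 37 to 39 (low Isl1 against 0 h), 8 to 15 (against 8 h), 9 to 13 (high Isl1 against ISL1 0 h) and 12 to 17 (high against low). They were 31 to 33 for ISL1 at 0 h, 26 to 31 for the interaction and 39 to 41 for the F test. With the replicate number as a block the counts were 42 at 8 h, 10 at 2 h and 29 for the interaction, and no named call was lost. For the 48 h groups, whose numbers pair, the high against low count was 17 with the block over all arrays and 13 in a blocked fit of these groups alone, chosen after seeing the data, where Psmc3 (0.19) lost its call and no other named gene did. Low signal limits Psma8, Psmb11 and Psmg3, which were not shown to be above background.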
